A study of Saccharomyces cerevisiae with 17 samples.

Results

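The data are poly(A) RNA counts from haploid budding yeast that lacked EBS1, set against its wild type, as 3 ebs1Δ libraries and 5 wild type libraries of the 17 libraries in the series. The wild type was BY4741, a MATa laboratory strain that lacks URA3, MET17, LEU2 and a working HIS3, carrying pRS415, a plasmid with LEU2. The deletion strain had EBS1 replaced by KlURA3 (ebs1delta::KlURA3, a Kluyveromyces lactis URA3 marker) and carried the same plasmid. Both grew in SD-LEU, synthetic dextrose medium without leucine, to an absorbance of 0.6 to 0.7 at 600 nm, and total RNA was extracted with hot phenol. All 3 ebs1Δ libraries and wild type replicates 1 and 2 were sequenced in batch 1, and wild type replicates 3 to 5 in batch 2. The upf1Δ (3 libraries, batch 1) and nmd4Δ (6 libraries, 3 in each batch) strains carry KlURA3 in place of the deleted gene as well and are used below only to place ebs1Δ. KlURA3 was present in every deletion library and absent from wild type, so in any comparison with wild type the loss of EBS1 and the gain of the marker cannot be told apart. The comparisons between ebs1Δ and the other deletions do not involve it.

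Nonsense-mediated mRNA decay (NMD) degrades mRNAs on which translation ends too early, such as those with a premature stop codon, a retained intron, an upstream reading frame or a long 3′ untranslated region. Its core in yeast is the helicase Upf1, encoded by NAM7, with Upf2 (NMD2) and Upf3. Ebs1, like Nmd4, is known as a partner of Upf1. The comparison addresses which mRNAs change when Ebs1 is absent and how that set relates to the mRNAs that respond to the loss of Upf1 itself.

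The 8 libraries held 19.75 to 57.65 M counted reads, with the 3 ebs1Δ libraries at the low end (19.75 to 26.23 M). Levels are in CPM (reads per M of the TMM-scaled library size, not corrected for batch). A change is the log2 fold change with its SE, and its adjusted p comes from edgeR's quasi-likelihood test, fitted with a batch term on 6162 genes. Wild type replicates 3 and 4 paired with replicates 1 and 2. The difference between replicates 1 and 2 correlated with that between 3 and 4 across 4064 genes (r = 0.863, where genes are not independent replicates). It also correlated with that between 3 and 5 (r = 0.701) but not with that between 4 and 5 (r = -0.11). The correlation therefore rested largely on replicate 3. Given this pairing, wild type means ± SD were taken over 3 matched sets (n = 3). Replicates 1 and 3 were averaged first, as were 2 and 4, and replicate 5 stood alone. Averaging can narrow the wild type SD, whereas the ebs1Δ SD is over single libraries, so the wild type and ebs1Δ SD are not directly comparable. Matched libraries had a consensus correlation of 0.7185. That value also covers nmd4Δ replicates 4 to 6, set with nmd4Δ replicates 1 to 3 by number, a match that was not examined here. The main fit nevertheless counted every library as separate. Its SE and adjusted p values may therefore be too small. Fits with matched libraries, wild type and nmd4Δ, as a block or summed are given below. The labels call the replicates biological without naming separate cultures, and a single deletion strain is given, so a p-value reflects the spread between libraries, here estimated over all 17 in the series.

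EBS1 (YDR206W, chrIV:862054-864708, plus strand) was the check of the labels. It had 3325, 3746, 6950, 5599 and 5394 reads in the wild type libraries and 1, 0 and 0 reads in ebs1Δ. The single read put its level in ebs1Δ at 0.0102% of wild type, with a 95% exact Poisson interval of 0.000259% to 0.0569% that covers counting error only. The genes on either side, MSC2, COQ4, UME6 and MSS4, had log2 changes between -0.11 and 0.05 and none was called. URA3 had 0 reads in every library and MET17 at most 1. LEU2, which pRS415 supplies, had at least 65799 reads in each library, and HIS3, which BY4741 carries in a partly deleted form, at least 2156.

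The ebs1Δ strain differed from wild type by many small changes and few large ones. At an adjusted p under 0.05, 1318 of the tested genes (21.4%) changed: 863 (14%) rose and 455 (7.38%) fell, while 54 rose 2-fold or more (0.876%) and 16 fell 2-fold or more (0.26%). The median size of a called log2 change was 0.31, and 79.7% of called changes were under 1.5-fold. Rises were larger (median 0.39) than falls (median -0.23), and 48 of the 54 rises of 2-fold or more were in genes with a mean under 10 CPM. In 1062 tested genes (17.2%) every ebs1Δ library lay above every wild type library, and in 734 (11.9%) every one lay below. Of the called genes, 785 rises and 357 falls had no overlap of that kind. Within batch 1 alone, with 2 wild type libraries, 541 genes rose and 158 fell, and a fit of the 8 libraries by themselves gave 481 and 134. With matched libraries treated as a block (limma voom) 648 rose, 30 of them 2-fold or more, and 359 fell. With them summed, 957 rose, 129 of them 2-fold or more, and 460 fell. A sum of matched wild type or nmd4Δ libraries joins the 2 batches, so the summed counts do not show the effect of matching alone. The number of falls rested on single libraries: it was 258 without wild type replicate 1, 264 without ebs1Δ replicate 2 and 301 without ebs1Δ replicate 3.

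**Figure D1:**
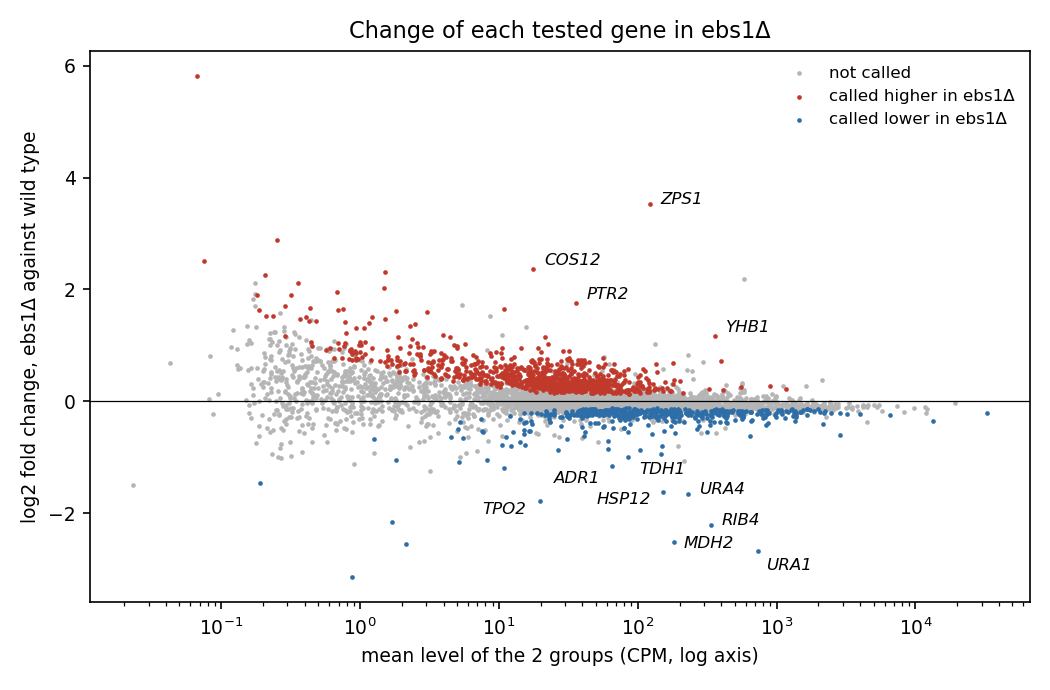
Log2 fold change of each tested gene in ebs1Δ against wild type (vertical axis) by its mean level in CPM (horizontal log axis). Red points were called higher (863 genes) and blue points lower (455), EBS1 itself is not drawn, and URA1, MDH2, RIB4 and URA4 stand out as falls at high level.

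The direction of change moved with the level of the gene. Among the least expressed 1541 genes (mean up to 19.6 CPM), 25.4% rose and 2.27% fell. Among the most expressed 1541 genes, 2.14% rose and 14.5% fell. The middle classes of 1540 genes lay between, with 19.2% and 9.22% higher and 4.81% and 7.99% lower. The median log2 change over all tested genes was -0.01.

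Large falls at a substantial level were found in genes of pyrimidine, riboflavin and malate enzymes. URA1 (YKL216W, chrXI:25215-26159, plus strand) encodes dihydroorotate dehydrogenase, the 4th step of pyrimidine synthesis. It stood at 1253, 1261, 1252, 1230.1 and 1322 CPM in wild type and at 172, 212 and 202 CPM in ebs1Δ. Its log2 change was -2.68 ± 0.10 (adjusted p = 7.07e-13). RIB4 (YOL143C, chrXV:54595-55104, minus strand), lumazine synthase of the riboflavin pathway, went from 552 ± 36.5 CPM (SD, n = 3) to 131, 115 and 117 CPM, a log2 change of -2.21 ± 0.064 (adjusted p = 8.35e-15). MDH2 (YOL126C, chrXV:81787-82920, minus strand), the cytosolic malate dehydrogenase used in gluconeogenesis, went from 307 ± 32.3 CPM (SD, n = 3) to 60.3, 55.1 and 51.6 CPM (-2.51 ± 0.13, adjusted p = 1.16e-09). URA4 (YLR420W, chrXII:963785-964879, plus strand), dihydroorotase, stood at 349, 349, 352, 354 and 357 CPM in wild type and at 107, 113 and 111 CPM in ebs1Δ (-1.67 ± 0.0565, adjusted p = 1.1e-13). In all 4 genes the groups were far apart, with every ebs1Δ library under every wild type library.

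The 4 genes also held a common sequence pattern upstream. Ppr1, the activator of the pyrimidine genes, is known to bind CGG and CCG triplets separated by 6 bases. The pattern, CGG then any 6 bases then CCG, covers the same places on both strands and was searched, after the values were known, in the 500 bases before each start codon of the R64 genome (RefSeq, the build of the counts). Each of the 4 genes held it, as did FUI1, the uridine permease gene, and YNL034W, an uncharacterised gene of low level. TPO2, which fell more than URA4, did not hold it, nor did HSP12. Sites are printed for URA1, URA4, RIB4, MDH2, FUI1 and YNL034W, with the motif in capitals and 20 bases on each side. They are read on the strand of the gene from 5′ to 3′. FUI1 was picked by hand, and sites of other genes that fell less than 2-fold or rose are not shown.
URA1, chrXI:24983-25034, plus strand, 212 bases before the start codon: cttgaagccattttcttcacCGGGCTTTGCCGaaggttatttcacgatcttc
URA1, chrXI:25014-25065, plus strand, 181 bases before: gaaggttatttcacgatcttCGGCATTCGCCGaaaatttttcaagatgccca
URA4, chrXII:963635-963686, plus strand, 130 bases before: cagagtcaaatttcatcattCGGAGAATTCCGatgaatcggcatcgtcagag
RIB4, chrXV:55271-55322, minus strand, 198 bases before: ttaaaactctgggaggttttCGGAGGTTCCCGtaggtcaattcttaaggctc
RIB4, chrXV:55209-55260, minus strand, 136 bases before: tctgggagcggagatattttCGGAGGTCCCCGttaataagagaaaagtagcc
MDH2, chrXV:83205-83256, minus strand, 316 bases before: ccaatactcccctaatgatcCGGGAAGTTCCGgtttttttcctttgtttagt
FUI1, chrII:140580-140631, minus strand, 351 bases before: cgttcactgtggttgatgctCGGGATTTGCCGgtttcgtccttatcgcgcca
YNL034W, chrXIV:570041-570092, plus strand, 416 bases before: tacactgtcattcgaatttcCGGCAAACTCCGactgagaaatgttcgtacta

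MDH2 held 3 such sites, the other 2 at 372 and 443 bases. Of 5986 nuclear protein-coding genes, 162 (2.71%) held the motif in this window. It was present in 6 of the 15 annotated genes that fell 2-fold or more, namely URA1, URA4, RIB4, MDH2, YNL034W and YNL018C. The last 2 are near-identical copies (97.9% identity over 1839 bases) between which reads may have been split, so they count as 1 source. Over the whole comparison it was present in 40 of 453 falls (8.83%), 16 of 803 rises (1.99%) and 102 of 4503 genes that were not called (2.27%). A match describes these letters only and does not show that a factor binds there.

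Of the 17 tested genes of pyrimidine synthesis and uptake, 4 fell (23.5%, against 7.38% of all genes) and 1 rose, with a median log2 change of -0.05. FUI1 stood at 169 to 212 CPM in wild type and at 80.2, 158 and 98.3 CPM in ebs1Δ (-0.81 ± 0.20, adjusted p = 0.0103), and it was not called within batch 1 or in the fit of the 8 libraries. URA2, which encodes the enzyme of the first 2 steps, fell by 0.34 ± 0.054 on the log2 scale, from 551 ± 15.4 to 446 ± 14.2 CPM (SD, n = 3 each). URA5 and URA10, the paired genes of orotate phosphoribosyltransferase, had log2 changes of -0.07 ± 0.054 and 0.07 ± 0.078 and were not called. PPR1 itself, whose mRNA is a documented NMD substrate, stood at 32.6 to 35.9 CPM in wild type and 36.4, 46.7 and 43.3 CPM in ebs1Δ. Its rise (0.30 ± 0.088, adjusted p = 0.0184) was not called within batch 1 or without wild type replicate 1, ebs1Δ replicate 2 or ebs1Δ replicate 3. URA3 had no reads and could not be tested.

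The other strains that carry KlURA3 were compared with ebs1Δ directly for the same genes. Against upf1Δ, URA1 in ebs1Δ differed by -0.09 on the log2 scale (95% interval -0.29 to 0.11), and against nmd4Δ it was higher by 0.34 (0.16 to 0.53, adjusted p = 0.0117). URA4 was higher than in upf1Δ by 0.15 (0.03 to 0.26, adjusted p = 0.0296) and differed from nmd4Δ by 0.02 (-0.09 to 0.13). RIB4 was lower than in upf1Δ by a log2 difference of -0.18 (-0.30 to -0.05, adjusted p = 0.0183), with -0.04 (-0.16 to 0.09) against nmd4Δ. MDH2 was lower than in upf1Δ by -0.48 on the log2 scale (-0.74 to -0.21, adjusted p = 0.00352) and differed from nmd4Δ by -0.18 (-0.43 to 0.08).

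**Figure D2:**
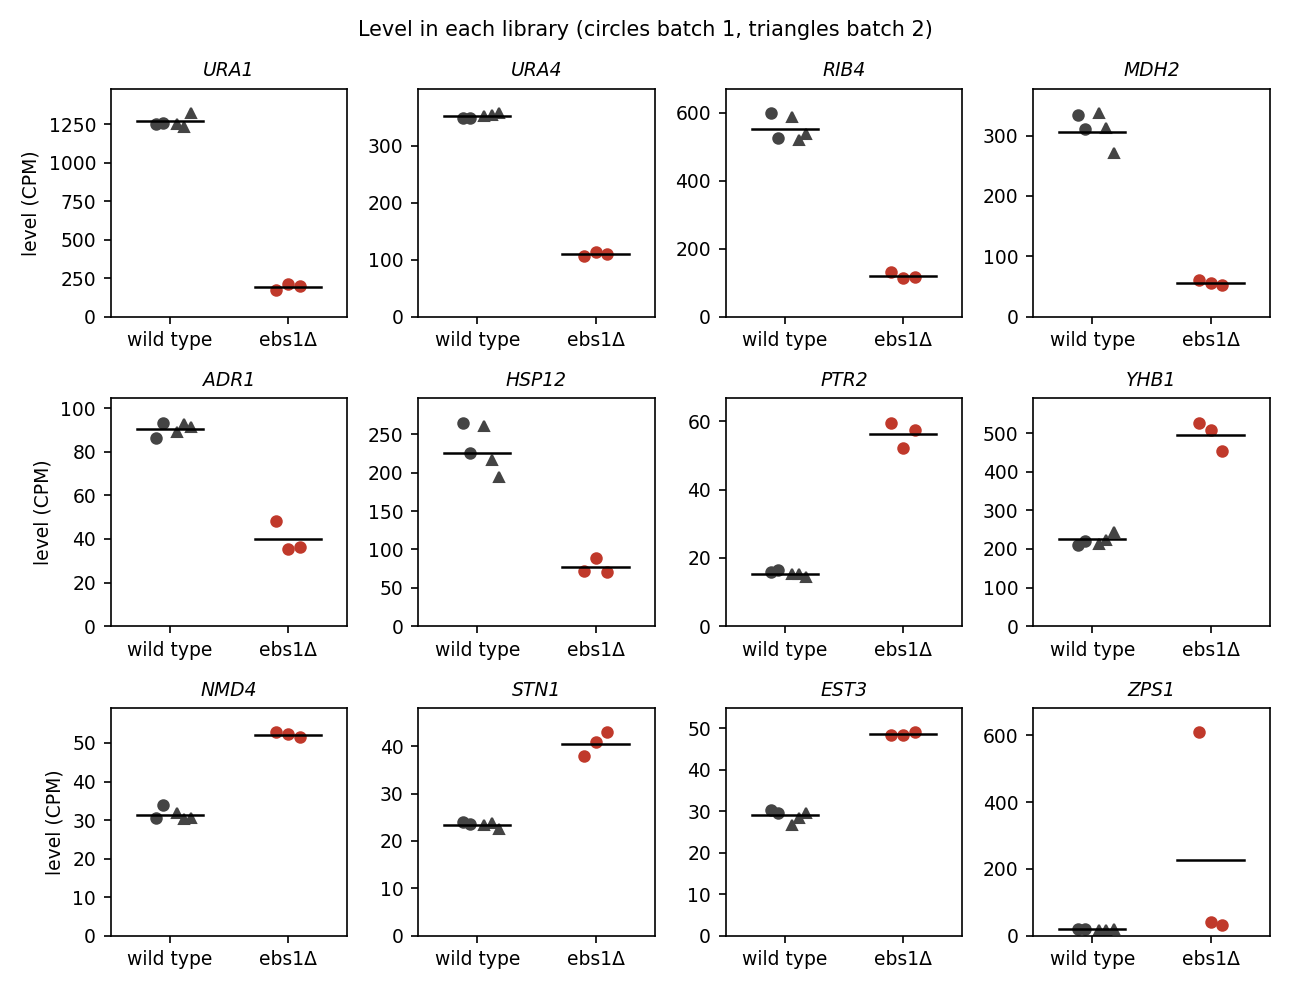
Level in CPM (vertical axes, each from 0) of 12 genes in every wild type and ebs1Δ library, with batch 1 as circles, batch 2 as triangles and the group mean as a line. URA1, URA4, RIB4 and MDH2 separate completely, while the ebs1Δ mean of ZPS1 is set by 1 library at 609 CPM.

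Other genes of the same pathways moved less. In the riboflavin list of 9 genes, 2 rose (22.2%, against 14% of all genes) and 1 fell (11.1%, against 7.38%). MCH5, the riboflavin importer, rose from 23.1 ± 3.98 to 42.7 ± 10.02 CPM (SD, n = 3 each), a log2 change of 0.72 ± 0.14 (adjusted p = 0.00164), and was not called in the fit of the 8 libraries. FMN1 rose by 0.15 ± 0.047 on the log2 scale (adjusted p = 0.0235) and kept its call in 12 of 18 alternatives. RIB4 was the 1 fall. Of 18 genes of malate metabolism, the glyoxylate cycle and gluconeogenesis, 5 fell (27.8%, against 7.38% of all genes) and 1 rose. Their median log2 change was -0.17. The falls numbered 4 within batch 1, 1 in the fit of the 8 libraries, 2 without ebs1Δ replicate 3 and 3 without wild type replicate 1. The mitochondrial enzyme gene MDH1 changed by -0.29 ± 0.071 and the malic enzyme gene MAE1 by -0.27 ± 0.070, and both lost their call in the fit of the 8 libraries. FBP1, the fructose bisphosphatase gene, was called lower at a level of 1.30 to 3.76 CPM in wild type and 0.881 to 1.85 in ebs1Δ, where the groups overlapped, and lost its call in 7 alternatives.

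Among further large falls, TPO2, a plasma membrane polyamine exporter with a near-identical copy elsewhere, stood at 26.3 to 35.4 CPM in wild type and at 7.62, 10.8 and 9.69 CPM in ebs1Δ (-1.79 ± 0.26, adjusted p = 0.000187). ADR1, the activator of glucose-repressed genes, stood at 86.1 to 93.3 CPM in wild type and at 48.4, 35.5 and 36.2 CPM in ebs1Δ (-1.16 ± 0.11, adjusted p = 8.48e-07). HSP12, a small membrane-stabilising stress protein, had 265, 225, 261, 216 and 195 CPM in wild type and 71.4, 89.2 and 70.9 CPM in ebs1Δ (-1.62 ± 0.185, adjusted p = 2.58e-05). FMP48, a protein kinase gene, fell, with 10.9 to 19.5 CPM in wild type and 5.21 to 7.58 CPM in ebs1Δ (adjusted p = 0.00246). YRO2, a membrane protein gene, fell by 0.87 ± 0.20 on the log2 scale. DOT6, which encodes a repressor of ribosome assembly genes, had 222, 177, 231, 186 and 168 CPM in wild type and 119, 97.7 and 88.2 CPM in ebs1Δ (-0.94 ± 0.16, adjusted p = 0.000828). None of these groups overlapped. All of these genes were also called lower than wild type in upf1Δ and nmd4Δ. The log2 changes there were -1.52 and -1.11 for ADR1 and -2.51 and -1.31 for HSP12. Compared directly, only DOT6 among them was called lower in ebs1Δ than in either.

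Among the larger rises that were even across ebs1Δ libraries were a transporter, a detoxification and a subtelomeric gene. PTR2 (YKR093W, chrXI:615730-617535, plus strand), the importer of di- and tripeptides, stood at 15.96, 16.3, 15.2, 15.3 and 14.4 CPM in wild type and at 59.5, 52.1 and 57.4 CPM in ebs1Δ. Its log2 change of 1.76 ± 0.095 (adjusted p = 4.07e-10) had the lowest adjusted p of the 54 rises of 2-fold or more. CUP9, the repressor of PTR2, fell by 0.55 ± 0.084 on the log2 scale, from 49.4 ± 3.17 to 33.4 ± 5.49 CPM (SD, n = 3 each). In the peptide transport list of 10 genes, 4 rose (40%, against 14% of all genes) and 2 fell (20%, against 7.38%). YHB1, a flavohaemoglobin that removes nitric oxide, rose from 226 ± 16.8 CPM (SD, n = 3) to 526, 508 and 453 CPM (1.17 ± 0.093, adjusted p = 6.19e-08). COS12, a subtelomeric membrane protein gene on chromosome VII, stood at 4.14, 5.50, 4.73, 5.52 and 9.58 CPM in wild type and at 27.3, 34.9 and 24.7 CPM in ebs1Δ (2.36 ± 0.35, adjusted p = 0.000373). PTR2, YHB1 and COS12 rose in the other deletions as well. Their log2 changes were 1.56, 1.36 and 3.74 in upf1Δ and 2.05, 0.96 and 1.53 in nmd4Δ. Compared directly, PTR2 was lower in ebs1Δ than in nmd4Δ (-0.29, adjusted p = 0.0227) and COS12 lower than in upf1Δ (-1.38, adjusted p = 0.00147). None of the 3 was called higher in ebs1Δ than in either.

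ZPS1, a cell surface protein gene induced by zinc shortage, had the largest fitted rise among named genes (3.54 ± 1.09, adjusted p = 0.0364), and 1 library set it. It stood at 16.99 to 20.7 CPM in wild type and at 609, 40.4 and 33.2 CPM in ebs1Δ. Without ebs1Δ replicate 1 its log2 change was 0.91 and it was not called. Its call was lost in 11 of 17 alternatives, among them each fit without 1 wild type library, batch 1 alone (3.51) and the replicate block (2.61). The zinc transporter gene ZRT1 showed the same library, with 2305, 404 and 176 CPM against 181 to 249.7 CPM in wild type, and was not called (2.18 ± 0.84, adjusted p = 0.0884). ZAP1, the zinc-responsive activator, stood at 86.3, 43.7 and 39.4 CPM. Of 20 zinc-responsive genes tested, ZPS1 was the only call. Among 5093 genes with at least 10 CPM, ebs1Δ replicate 1 differed 2-fold or more from the mean log2 level of the other two ebs1Δ libraries in 9 genes, replicate 2 in 6 and replicate 3 in 2.

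The next group was made of NMD substrates described in earlier yeast work. Of 20 such mRNAs, 11 rose (55%, against 14% of all tested genes) and 1, ADR1, fell, with a median log2 change of 0.37 against -0.01 over all genes. Within batch 1, 9 of them rose. The list was chosen with results of these samples known and is not independent evidence of its direction. All 3 ebs1Δ libraries lay above all wild type libraries in 12 of the 20, against 17.2% of all tested genes. STN1 (YDR082W, chrIV:610441-611925, plus strand), a subunit of the complex that caps telomeres, stood at 24.0, 23.7, 23.4, 23.8 and 22.5 CPM in wild type and at 37.96, 40.8 and 42.9 CPM in ebs1Δ (0.77 ± 0.054, adjusted p = 1.62e-08). TEN1, its partner, rose from 6.18 ± 0.31 to 11.4 ± 1.43 CPM (SD, n = 3 each), by 0.81 ± 0.10. CPA1, an arginine pathway gene whose upstream reading frame stalls ribosomes, had 257 to 333 CPM in wild type and 488, 549.9 and 460.3 CPM in ebs1Δ (0.72 ± 0.11, adjusted p = 0.000129). DAL7, a malate synthase of allantoin breakdown, rose by 0.60 ± 0.064 and the magnesium transporter gene ALR1 by 0.37 ± 0.058.

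The same substrates differed in size from the other deletions. Compared directly, 14 of the 20 were lower in ebs1Δ than in upf1Δ (33.8% of all genes) and 3 were higher, while 12 were higher than in nmd4Δ (16% of all genes) and none was called lower. STN1 was lower than in upf1Δ by a log2 difference of -1.76 (95% interval -1.87 to -1.65) and higher than in nmd4Δ by 0.66 (0.56 to 0.77). DAL7 was lower than in upf1Δ by -2.87 on the log2 scale (-3.01 to -2.74, adjusted p = 6.93e-17) and higher than in nmd4Δ by 0.39. REC107, a meiotic gene with an intron, stood at 18.9 to 20.5 CPM in wild type and at 23.8, 18.6 and 23.0 CPM in ebs1Δ and was not called (0.16 ± 0.086, adjusted p = 0.203). It was 2.38 above wild type on the log2 scale in upf1Δ, and the difference between ebs1Δ and upf1Δ was -2.22 (-2.39 to -2.05, adjusted p = 3.61e-14). FRE2, CTR2, MAC1, COX23, SPT10, UBP7 and ROK1 were the other substrates without a call.

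**Figure D3:**
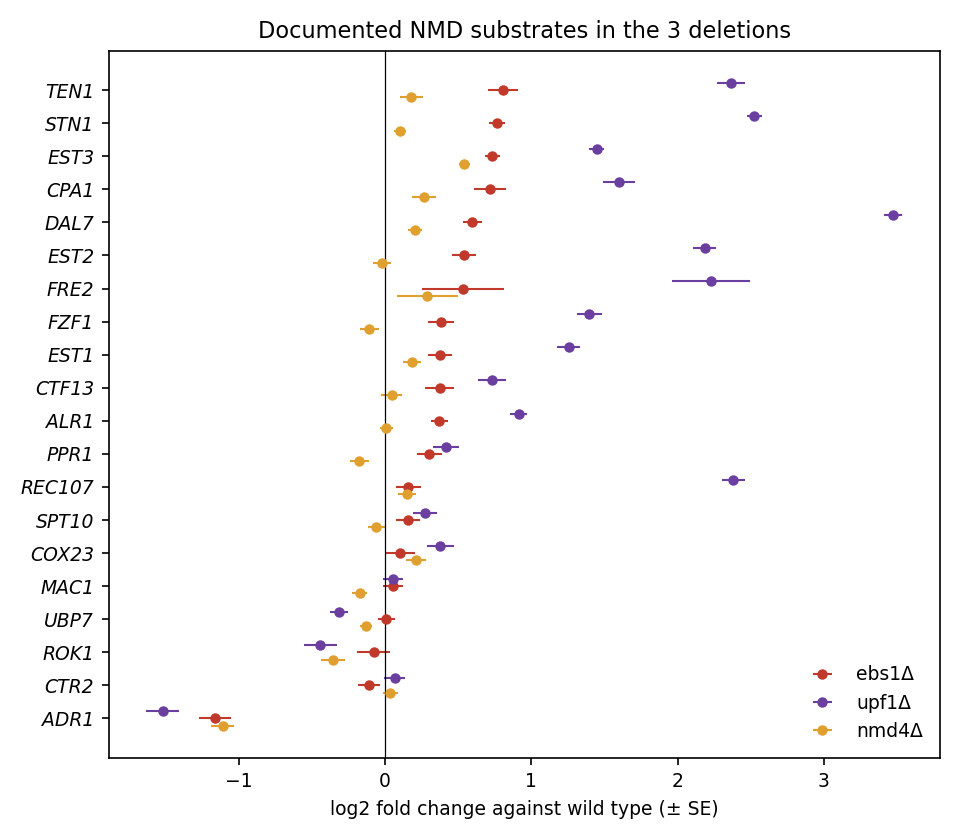
Log2 fold change against wild type (horizontal axis, ± SE) of the 20 documented NMD substrates in ebs1Δ (red), upf1Δ (purple) and nmd4Δ (yellow), which share the wild type libraries. In ebs1Δ the values run from -1.16 for ADR1 to 0.81 for TEN1.

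Several telomerase and telomere capping mRNAs are among these substrates. Of 12 telomere genes tested, 7 rose (58.3%, against 14% of all genes; 6 within batch 1) and 1, RAP1, fell (8.33%, against 7.38%). EST2, the reverse transcriptase subunit of telomerase, stood at 18.9 to 22.2 CPM in wild type and at 26.9, 29.1 and 32.6 CPM in ebs1Δ (0.54 ± 0.083, adjusted p = 0.000113), and differed from nmd4Δ by 0.56 on the log2 scale (0.40 to 0.72). EST1, a telomerase subunit that shares ancestry with Ebs1, rose by 0.38 ± 0.082, from 18.7 ± 1.29 to 25.2 ± 2.04 CPM (SD, n = 3 each). EST3, a further subunit, was even across libraries, at 26.6 to 30.2 CPM in wild type and 48.3, 48.3 and 48.997 CPM in ebs1Δ (0.73 ± 0.054, adjusted p = 2.3e-08).

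EST3 is 1 of 3 yeast mRNAs read through a programmed +1 frameshift, in which the ribosome skips a base. The 30 bases around each skipped base, taken from the R64 reference, are printed with that base in capitals, on the strand of the gene from 5′ to 3′, because the 3 mRNAs share this feature.
EST3, chrIX:335921-335950, minus strand: cacaccaaatacttAgttgagttttcccaa
OAZ1, chrXVI:458992-459021, plus strand: aggattggtgcgcgTgacatccctctagac
ABP140, chrXV:785674-785703, plus strand: atgactcttgtcttAggcattgatcaacag
OAZ1, the antizyme that targets ornithine decarboxylase, had 19.8 to 22.3 CPM in wild type and 23.3, 29.98 and 26.8 CPM in ebs1Δ (0.32 ± 0.094, adjusted p = 0.0202), and was not called within batch 1 or without ebs1Δ replicate 2. ABP140, a tRNA methyltransferase gene, had overlapping groups at 224 to 270.3 CPM and 218, 227 and 264 CPM (-0.08 ± 0.077, adjusted p = 0.515).

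Upstream reading frames, which can end translation early, formed a further list. Of 21 such mRNAs tested, 3 rose (14.3%, against 14% of all genes), CPA1, RPC11 and YAP1, and none fell. RPC11 and YAP1 had overlapping groups, and each kept its call in only 11 of 18 alternatives. Neither was called within batch 1 or in the fit of the 8 libraries. GCN4, whose 4 upstream frames are the best known, stood at 865 to 988 CPM in wild type and 1026 to 1089.8 CPM in ebs1Δ, with a log2 change of 0.09. Of 5 genes with an interrupted reading frame in this strain background, AAD6 was the 1 rise (0.53 ± 0.068, from 12.9 ± 0.62 to 19.8 ± 0.249 CPM; SD, n = 3 each). The single wild type libraries of AAD6 ran from 11.9 to 14.9 CPM. Its relative AAD4, an aryl-alcohol dehydrogenase gene with a near-identical copy, rose by 0.89 ± 0.084, with 12.4 to 15.3 CPM in wild type and 29.9, 25.7 and 23.6 CPM in ebs1Δ.

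Thiamine synthesis genes, which yeast induces when the vitamin is short, gave many of the rises among the lists. Of 23 such genes, 11 rose (47.8%) and none fell, with a median of 0.32, and 8 rose within batch 1. The share was 14% over all genes and 25.4% over the least expressed class. THI6, an enzyme of thiamine phosphate synthesis, had 49.4 to 53.6 CPM in wild type and 84.1, 79.2 and 86.1 CPM in ebs1Δ (0.67 ± 0.049, adjusted p = 2.3e-08). THI11 has a near-identical copy, between which reads may have been split, and had a log2 change of 0.69 ± 0.11. Among 28 genes for using allantoin or repressed by good nitrogen sources, 7 rose (25%) and none fell, and 6 rose within batch 1. That share lay above the 14% of all genes but near the 25.4% of the least expressed class. DAL3, a ureidoglycolate enzyme, went from 4.04 ± 0.348 to 7.16 ± 0.79 CPM (0.68 ± 0.12), and GDH2, glutamate dehydrogenase, from 74.3 ± 0.235 to 97.7 ± 2.19 CPM (0.35 ± 0.046; SD, n = 3 each).

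Of 18 early meiotic genes, 7 rose (38.9%, against 14% of all genes and 25.4% of the least expressed class) and none fell, and within batch 1 there were 4 calls. REC8, the meiotic cohesin, went from 3.13 ± 0.239 to 6.80 ± 0.468 CPM (0.99 ± 0.11, adjusted p = 2.24e-06), and IME2, the kinase that starts meiosis, from 9.85 ± 1.09 to 14.2 ± 0.968 CPM (0.57 ± 0.088). Of 11 tested meiotic genes with introns, 4 rose (36.4%), among them the helicase gene HFM1 (20.1 to 22.5 CPM in wild type, 32.8, 31.8 and 32.6 CPM in ebs1Δ, 0.58 ± 0.058). Of 20 tested seripauperin, TIR and DAN cell wall genes, 8 rose (40%) and none fell. The count was 6 within batch 1, 4 in the fit of the 8 libraries alone, 3 with matched libraries as a block, 12 with matched libraries summed and 15 without the batch term. TIR4 had 8.37 to 9.20 CPM in wild type and 13.97, 13.003 and 15.03 CPM in ebs1Δ (0.62 ± 0.10). The other 10 genes of this list had too few reads to be tested.

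Position on the chromosome was examined as well, since seripauperin and COS genes lie near the ends. Of 250 tested genes under 25 kb from an end, 37.2% rose and 3.2% fell, against 12.9% and 8.07% of 5512 genes farther in. By level, in the least expressed class 44.7% of 159 genes near ends rose against 26.5% of 990 others, and in the second class 47.2% of 36 against 18.6% of 1498. In the third class 17.9% of 28 genes near ends rose against 9.06% of 1512, and 14.3% fell against 7.87%. In the most expressed class none of 27 rose, against 2.18% of 1512. Leaving out genes with a near-identical copy, 41.2% of 160 genes near ends rose.

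**Figure D4:**
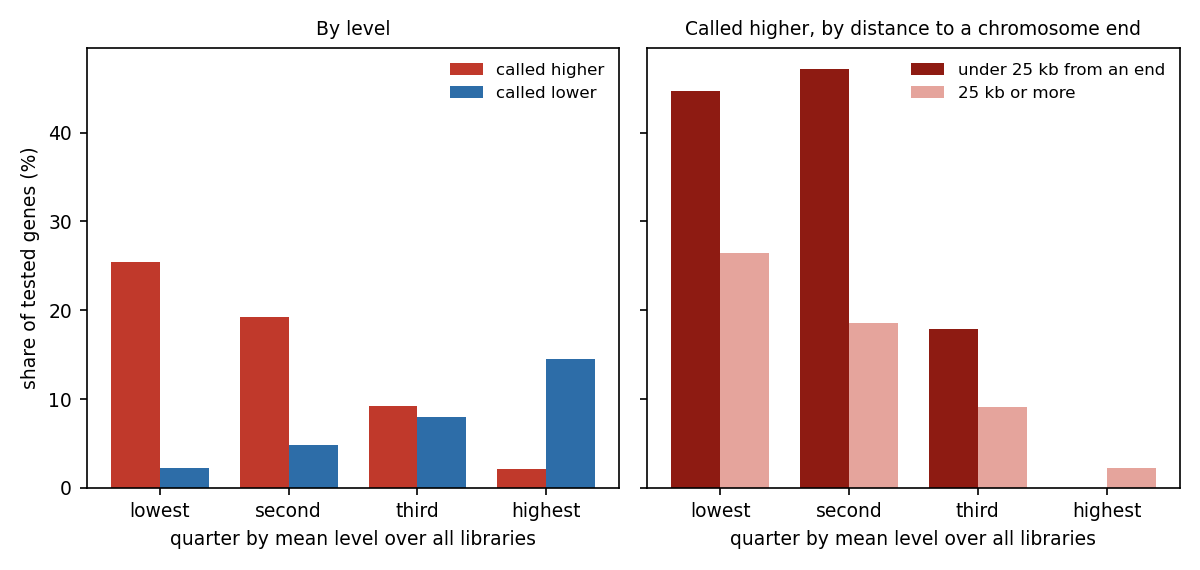
Left, share of tested genes (%) called higher (red) or lower (blue) in ebs1Δ, in 4 classes of mean level. Right, share called higher within each level class for genes under 25 kb from a chromosome end (dark) and farther in (light), 44.7% against 26.5% in the lowest class.

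Several further rises of the naming rule had roles outside these lists. PPT2, which attaches the cofactor of mitochondrial fatty acid synthesis, had 12.2 to 13.9 CPM in wild type and 23.4, 25.6 and 26.7 CPM in ebs1Δ (0.96 ± 0.085, adjusted p = 2.36e-07). KDX1, a kinase related to that of the cell wall pathway, had 21.7 to 23.6 CPM and 42.7, 36.3 and 43.7 CPM (0.90 ± 0.068, adjusted p = 3.1e-08). SHU2 of the recombination repair complex (0.79 ± 0.0895), the siderophore reductase gene FRE3 (0.78 ± 0.19), the formin regulator gene BIL1 (0.76 ± 0.062) and the TRAPP subunit gene TCA17 (0.76 ± 0.056) followed, each with no overlap between groups. GIT1, the glycerophosphodiester transporter of the phosphate list, rose by 0.96 ± 0.096, while PHO84, the phosphate transporter, stood at 56.5, 171 and 183 CPM against 209 to 348 CPM and was not called (-1.08 ± 0.84).

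On the downward side, nuclear genes of the respiratory chain and ATP synthase changed by small amounts. Of 39 tested, 20 fell (51.3%, against 7.38% of all genes) and none rose, with a median of -0.24. The count was 14 within batch 1, 11 in the fit of the 8 libraries, 10 with the replicate block, 7 with matched libraries summed, 9 without wild type replicate 1 and 10 without ebs1Δ replicate 2. QCR7, a complex III subunit, had 139.7, 143, 136, 131 and 128 CPM in wild type and 100.2, 97.3 and 113 CPM in ebs1Δ (-0.42 ± 0.075, adjusted p = 0.000504). The ATP synthase gene ATP7 went from 135 ± 6.27 to 114 ± 4.44 CPM (-0.27 ± 0.063; SD, n = 3 each). Of the same 39 genes, 20 were lower in ebs1Δ than in nmd4Δ (10% of all genes were) and 24 were higher than in upf1Δ (27.4% of all genes). The 3 mitochondrially encoded genes that could be tested were not called.

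Cytosolic ribosomal protein genes showed smaller falls still. Of 138, 28 fell (20.3%, against 7.38% of all genes and 14.5% of the most expressed class) by 0.13 to 0.23 on the log2 scale and 1, RPL22B, rose (0.34 ± 0.063, from 136 ± 3.11 to 179 ± 13.1 CPM; SD, n = 3 each). This count depended on the libraries used: 2 fell within batch 1 and 2 in the fit of the 8 libraries, 14 and 17 without wild type replicates 1 and 2, and 17 and 10 without ebs1Δ replicates 1 and 2. None of 40 ribosome assembly genes was called in either direction, and 33 of them were higher in ebs1Δ than in upf1Δ (27.4% of all genes were) and 21 higher than in nmd4Δ (16% of all genes).

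Of 34 stress response genes, 6 fell (17.6%, against 7.38% of all genes and 14.5% of the most expressed class) and 1 rose, with a median of -0.29. The falls numbered 13 without ebs1Δ replicate 1, 4 without wild type replicate 1 and 5 within batch 1. RPI1, a regulator of cell wall stress genes, fell by 0.67 ± 0.0999 on the log2 scale, from 37.7 ± 3.77 to 24.0 ± 1.08 CPM (SD, n = 3 each). Of 20 glycolysis and fermentation genes, 4 fell (20%, against the same 7.38% and 14.5%) and 2 rose. In the fits within batch 1, without wild type replicate 1 and without ebs1Δ replicate 3, 2 fell in each. TDH1, the glyceraldehyde phosphate dehydrogenase isozyme gene with a near-identical copy in TDH2, stood at 141, 109, 131, 101 and 87.6 CPM in wild type and at 74.5, 62.9 and 48.9 CPM in ebs1Δ (-0.997 ± 0.18, adjusted p = 0.00128). TDH1 was lower than in nmd4Δ by a log2 difference of -1.35 (-1.72 to -0.98, adjusted p = 0.00021). Of 26 glucose-repressed and hexose transport genes, 5 fell (19.2%, against 7.38% of all genes) and 3 rose (11.5%, against 14%). Their median log2 change was -0.05. FOX2 of that list rose by 0.37 ± 0.066 on the log2 scale. The glucose transporter gene HXT4 fell by 0.71 ± 0.10 on the log2 scale, from 74.0 ± 4.31 to 47.7 ± 5.26 CPM (SD, n = 3 each). HXT7, which has a near-identical copy in HXT6, had 10.1 to 12.2 CPM in wild type and 4.75, 5.32 and 5.97 CPM in ebs1Δ (-1.05 ± 0.15).

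Of 34 cell wall genes, 6 fell (17.6%, against 7.38% of all genes and 14.5% of the most expressed class) and 3 rose. The abundant mannoprotein gene CWP2 had 3167 to 3673 CPM in wild type and 2121, 2425 and 2521 CPM in ebs1Δ (-0.60 ± 0.090, adjusted p = 0.000103). The sensor gene WSC4 had 31.1 to 39.3 CPM and 21.6, 15.3 and 17.9 CPM (-0.87 ± 0.17, adjusted p = 0.00197), and was lower than in nmd4Δ by -0.93 on the log2 scale. Of 7 genes specific to MATa cells none was called higher and 3 lower (42.9%, against 7.38% of all genes). Among the 3 was the pheromone protease gene BAR1 (-0.36 ± 0.10). The count was 1 within batch 1 and 0 without ebs1Δ replicate 1 or without wild type replicate 2. Of 4 genes specific to MATalpha cells 2 were called higher, the agglutinin gene SAG1 (0.46 ± 0.056, 30.99 to 33.9 CPM in wild type and 44.4, 43.0 and 48.6 CPM in ebs1Δ) and STE3, whose call was lost in 10 of 18 alternatives.

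**Figure D5:**
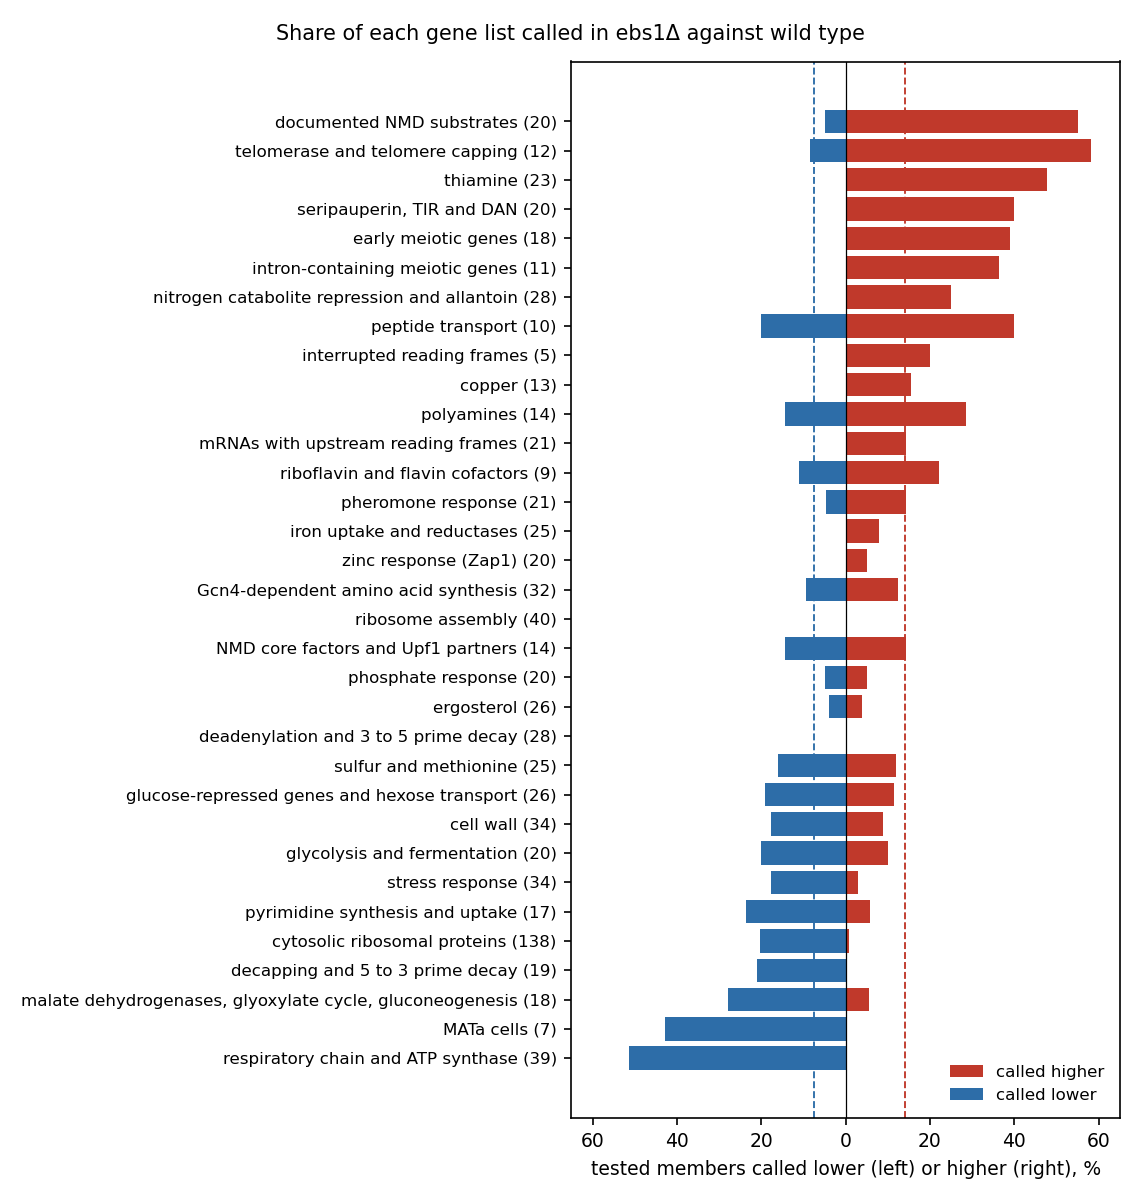
Share of the tested members (number in brackets) of each gene list called lower (left, blue) or higher (right, red) in ebs1Δ, with dashed lines at the shares of all tested genes (7.38% lower, 14% higher). Documented NMD substrates reach 55% higher and respiratory chain genes 51.3% lower.

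The NMD machinery was little changed. NMD4 rose, at 30.6, 33.9, 31.9, 30.2 and 30.4 CPM in wild type and 52.7, 52.3 and 51.5 CPM in ebs1Δ (0.68 ± 0.072, adjusted p = 1.65e-06), and was lower than in upf1Δ by a log2 difference of -0.9996 (-1.13 to -0.87). NAM7, the UPF1 gene, had 174 to 191 CPM in wild type and 202, 217 and 207 CPM in ebs1Δ. Its libraries did not overlap, but its change of 0.21 ± 0.19 was not called (adjusted p = 0.475). In the fit of the 8 libraries, without the upf1Δ libraries and their 10, 5 and 59 NAM7 reads, it was called (0.26, adjusted p = 0.0229), with adjusted p between 0.108 and 0.793 in the other alternatives. NMD2 and UPF3 were not called (0.15 and -0.12). SUP35, the release factor eRF3, was called lower (-0.18 ± 0.061, adjusted p = 0.0432), a call lost in 10 of 18 alternatives. Of 19 decapping and 5′ to 3′ decay genes 4 were called lower (21.1%, against 7.38% of all genes), EDC1, SCD6, DHH1 and LSM4, by 0.19 to 0.37. The count was 1 within batch 1, 0 in the fit of the 8 libraries, 2 with matched libraries as a block, 1 without wild type replicate 1, 2 without replicate 2, 1 without ebs1Δ replicate 2 and 1 without replicate 3. DHH1 had 93.6 and 98.4 CPM in batch 1 wild type, 59.8 to 69.1 CPM in batch 2 and 76.8 to 84.8 CPM in ebs1Δ, and the sign of its change turned when the batch term was left out. None of 28 genes of deadenylation and 3′ to 5′ decay was called.

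The ebs1Δ strain was also set directly against the other deletions. Between ebs1Δ and upf1Δ, 61.2% of genes differed: 1690 were higher in ebs1Δ (27.4%) and 2084 lower (33.8%), of which 13 (0.211%) and 689 (11.2%) by 2-fold or more. Between ebs1Δ and nmd4Δ, 26% differed: 986 were higher (16%) and 617 lower (10%), of which 16 (0.26%) and 11 (0.179%) by 2-fold or more. The nmd4Δ counts rested on batches and libraries, with 412 higher and 204 lower within batch 1, 413 and 252 without ebs1Δ replicate 2 and 501 and 275 without ebs1Δ replicate 3. Without nmd4Δ replicate 2, 347 were lower. Of the 863 genes that rose in ebs1Δ, 732 were higher still in upf1Δ, 25 were higher in ebs1Δ and 106 were not called. Of the same 863, 495 were higher in ebs1Δ than in nmd4Δ, 6 were lower and 362 were not called. Both held for 419 genes, lower than in upf1Δ and higher than in nmd4Δ, while 17 were higher in ebs1Δ than in both. These contrasts share the ebs1Δ libraries with the choice of the 863. The shares of all tested genes with these joint placings were not counted, so whether the placings are particular to the rises was not tested.

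The falls were placed in the same way. Of the 455, 173 were lower still in upf1Δ, 54 were lower in ebs1Δ and 228 were not called. Against nmd4Δ, 228 were lower in ebs1Δ, 2 higher and 225 not called. Over all genes, 27.4% were higher in ebs1Δ than in upf1Δ and 10% lower than in nmd4Δ. These contrasts share the ebs1Δ libraries with the choice of the 455, and a difference in placing between rises and falls was not tested. In 36 of the 455 ebs1Δ was lower than both, among them EBS1, DOT6 and SOL4. The share of all tested genes lower than both was not counted. DOT6 differed from upf1Δ by -0.43 on the log2 scale (-0.78 to -0.08, adjusted p = 0.032) and from nmd4Δ by -0.48 (-0.81 to -0.16, adjusted p = 0.0335). SOL4, a 6-phosphogluconolactonase gene chosen after its values were seen, had 12.7 to 19.8 CPM in wild type and 11.9, 6.83 and 8.61 CPM in ebs1Δ (-0.79 ± 0.22), and lost its call against wild type without ebs1Δ replicate 2 or 3 or wild type replicate 1.

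Some genes stood on opposite sides of wild type in ebs1Δ and upf1Δ. FMP40, a mitochondrial protein gene, had 29.4 to 34.4 CPM in wild type and 26.0, 21.8 and 25.1 CPM in ebs1Δ (-0.45 ± 0.081), against 0.48 in upf1Δ, and the direct difference was -0.93 (-1.09 to -0.76, adjusted p = 8.55e-09). OM45, an outer mitochondrial membrane protein gene, changed by -0.40 ± 0.091 against 0.32 in upf1Δ, with a direct difference of -0.71 (-0.90 to -0.52, adjusted p = 2.06e-06). DCS2, a stress-induced relative of the scavenger decapping enzyme, changed by -0.51 ± 0.15 against 0.45 in upf1Δ, with a direct difference of -0.96 (-1.26 to -0.65), although its fall lost its call without ebs1Δ replicate 2 or 3 or wild type replicate 1. These 3 genes were chosen after their values were seen.

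Apart from the deleted genes EBS1 and NAM7, the genes named for their difference from upf1Δ were lower in ebs1Δ. MAL11, a maltose transporter gene near a chromosome end, had a log2 change of 0.39 ± 0.11 in ebs1Δ (not called within batch 1 or without ebs1Δ replicate 1 or wild type replicate 1) and 3.04 in upf1Δ, with a direct difference of -2.65 (-2.87 to -2.43). PET18, of the thiamine list, had 9.96 to 11.04 CPM in wild type and 15.9, 13.9 and 18.8 CPM in ebs1Δ (0.60 ± 0.084) and differed from upf1Δ by -2.40 (-2.56 to -2.24). Further lists, against 14% higher and 7.38% lower of all genes, were phosphate response (1 higher, 1 lower of 20), ergosterol (1 and 1 of 26), iron uptake (2 and 0 of 25), copper (2 and 0 of 13), Gcn4-dependent amino acid synthesis (4 and 3 of 32), pheromone response (3 and 1 of 21) and sulfur and methionine (3 and 4 of 25). Of 14 polyamine genes 4 were higher (28.6%) and 2 lower (14.3%). Of 14 NMD core factors and Upf1 partners 2 were higher and 2 lower (14.3% each), the deleted EBS1 among the lower.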

How the data were processed

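The authors deposited unnormalized counts of reads for each gene and library. The submitters' processing notes name STAR 2.7.11a, featureCounts from Subread 2.0.5 and sacCer3. The annotation, the strand option and the handling of multi-mapping reads are unstated in these sources, so counts of near-identical copies and overlapping genes are uncertain. The table held 6692 genes, 6008 of them in RefSeq. Library preparation was poly(A)-selected and directional, per the labels' protocols.

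All 17 libraries were fitted together with edgeR 4.0.16 in R 4.3.3: filterByExpr by genotype (6162 genes), TMM, robust quasi-likelihood, terms for genotype and batch, 12 residual degrees of freedom, common dispersion 0.005254. Tests were two-sided with Benjamini-Hochberg adjustment over all tested genes and a threshold of 0.05. The SE is the log2 change over the square root of F. The pipeline was also run on simulated data, and no result of that run is used here. Alternatives used limma 3.58.1 and DESeq2 1.42.0. The gene lists and the comparison were chosen with earlier results of these data known. Genes named are the 12 largest rises and falls (called, at least 10 CPM, groups apart), up to 4 called members of lowest p per list, the deleted genes with neighbours, and the 5 largest differences from each other deletion. Other genes named were chosen after their values were seen. Sequences come from RefSeq R64.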

Additional observations from a re-analysis of the deposited data

Results flagged for a closer look

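Within the 5 wild type libraries, COS12 stood apart in wild type replicate 5, at 9.58 CPM against 4.14 to 5.52 CPM in the other 4, and all 3 ebs1Δ libraries lay above it. The test for a library far from the rest was run on the genes of largest change and the deleted genes, and chance gives such a value in about 1 in 20 groups.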

How the results depend on the processing

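No gene called in both the main fit and an alternative changed sign. Genes higher against wild type numbered 541 within batch 1 and 481 with only the 2 groups, and 694 to 849 when 1 library was left out. Lower genes numbered 158, 134 and 258 to 510. Those 2-fold or more higher numbered 95 without the batch term, 30 with matched libraries as a block and 129 with them summed, and 45 to 59 leaving out 1 library. Those 2-fold or more lower numbered 12 to 23.

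Against nmd4Δ, higher genes numbered 412 within batch 1 and 624 with matched libraries as a block, and lower genes 204 within batch 1 and 382 with them summed. Leaving out 1 library gave 413 to 1172 higher and 252 to 820 lower.

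DHH1 reversed to 0.0872 without the batch term and 0.18 with matched libraries summed, which joins the batches. Its wild type level differed between batches. The cause of the other movements was not tested, beyond the smaller number of libraries in the batch 1 and left-out fits.

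Replicate numbers as a block gave 772 higher and 355 lower genes against wild type. The numbers share no stated source: same-numbered libraries correlated at 0.475 and 0.317 for ebs1Δ with wild type, at 0.434, 0.51 and -0.0703 for ebs1Δ with upf1Δ and at 0.0199 to 0.0894 for ebs1Δ with nmd4Δ.

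Of 130 called named genes, 89 kept their call in every alternative run. Intervals for low counts cover counting error only.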
